A study of Mus musculus with 9 samples.

Results

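Transforming growth factor beta (TGF-beta) signalling was followed through 10 genes, Tgfb1, Tgfb2, Tgfb3, Ltbp1, Tgfbr1, Tgfbr2, Smad2, Smad3, Smad7 and Ccn2, in the kidneys of 9 mice. The genes were chosen by name for their place in the pathway, and all 10 are among the 32427 genes listed over the count matrices. Their counts were read in each mouse, in each group and in 13 populations of cells named from marker genes, as well as in all cells together.

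The 3 TGF-beta ligands are secreted in a latent form, held inactive by their own propeptide and tethered to the matrix by latent TGF-beta binding proteins such as LTBP1. Once released, a ligand binds the receptor TGFBR2, which recruits and phosphorylates TGFBR1, and the active complex phosphorylates SMAD2 and SMAD3. These move to the nucleus with SMAD4 and switch on target genes, among them Ccn2, which codes for the matricellular protein CCN2 (formerly called connective tissue growth factor), and Smad7, whose product inhibits the receptor complex. In the kidney the pathway is best known for driving matrix deposition by fibroblasts and myofibroblasts after injury. RNA levels, which are what was measured here, show neither ligand release nor SMAD phosphorylation.

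Single-cell RNA sequencing was performed on kidney tissue of 3 Control, 3 AKI-CKD and 3 AKI-CKD + EGT mice, 1 library for each mouse. All were male C57BL/6 mice, 6 weeks old at the outset, and had 1 week to adapt. AKI-CKD mice received cisplatin at 8 mg/kg once a week for 4 weeks, a schedule that carries acute kidney injury (AKI) on towards chronic kidney disease (CKD). AKI-CKD + EGT mice received the same cisplatin and, from 3 days before the first dose, drinking water with 0.5 mg/mL ergothioneine (EGT), a diet-derived thiol antioxidant. Control mice received saline, and the kidneys were taken after 8 weeks. The model is a repeated dose of a tubular toxin in young males of 1 strain, and the AKI-CKD + EGT group has no counterpart with EGT and no cisplatin.

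The 9 libraries held 70106161 to 101525691 UMIs (unique molecular identifiers, each standing for 1 captured RNA molecule), and 196925 of 216680 cell barcodes passed the quality limits, more than the study kept under the limits it states, with a median of 2534 to 2966 UMIs per cell. Any 2 libraries shared between 3583 and 7810 barcode strings, and 0 cells had a whole profile identical to that of a cell in another library. Summed over all cells, the libraries lay at a root mean square difference of 0.219 to 0.342 from their group on the log2 scale over 5249 genes. AKI-CKD + EGT replicate 3, which had the highest of these, also stood apart in its cells: 58.3% of them were PT-like against 82.8 and 77.3% in replicates 1 and 2, and 17255 of 23853 barcodes that met the minimums of UMIs and genes were kept, against 17196 of 18141 and 21753 of 23628. The share of mitochondrial UMIs was 1.55 to 6.08% in Control mice, 1.94 to 3.03% in AKI-CKD mice and 3.40 to 6.39% in AKI-CKD + EGT mice, so every AKI-CKD + EGT library lay above every AKI-CKD library.

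The populations are called X-like because they were rebuilt from marker lists: proximal tubule (PT, 160926 cells), thin limb (513), loop of Henle (LOH, 4178), distal convoluted tubule (DCT, 4383), connecting tubule (CNT, 4003), collecting duct principal (CD-PC, 1041) and intercalated cells (CD-IC, 1323), podocytes (325), endothelial cells (Endo, 3459), stromal cells (548), macrophages (Macro, 2339), T cells (920) and B cells (693). In 10 of these 13 populations every marker of the list was at least 2-fold above the other cells, and 7 of 8 were in Thin limb-like, 10 of 13 in Stromal-like and 13 of 16 in Macro-like cells. The Stromal-like cells need a reservation. They were led by Acta2, Ren1, Rgs5 and Myh11, genes of smooth muscle, pericytes and renin cells, whereas the fibroblast markers Pdgfra, Lum and Dpt lay under 10 CPM, a unit explained next. The values given for them are therefore those of mural cells more than of matrix-producing fibroblasts. No cluster met the marker list for injured tubule cells, and 8 clusters with 11349 cells stayed unnamed.

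In the following account of levels, CPM is the UMI count of a gene scaled to a total of 1000000 UMIs for that population in 1 mouse, and values are the mean ± SD over the 9 mice. These levels describe the populations and were not tested, because the cells had been sorted into populations by their own RNA. Values of different genes are not compared with each other.

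**Figure D1:**
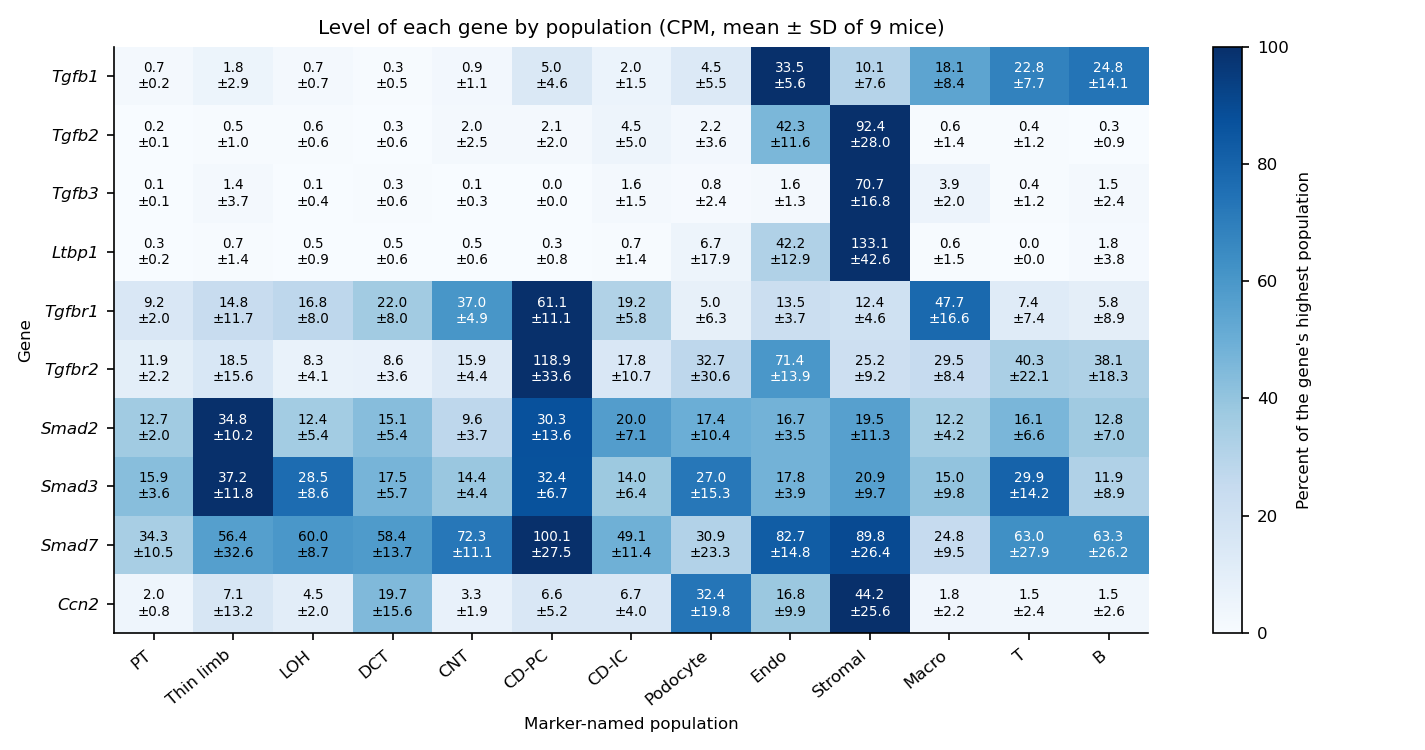
Mean level of each of the 10 genes (rows) in each of the 13 marker-named populations (columns), over the 9 mice; printed values are CPM ± SD, and the colour stands for the mean as a percentage of the gene's highest population. The ligand genes Tgfb2 and Tgfb3 and the binding protein gene Ltbp1 are highest in Stromal-like cells (92.4, 70.7 and 133 CPM), Tgfb1 in Endo-like cells (33.5 CPM), both receptor genes in CD-PC-like cells, and the Smad genes are spread over all populations.

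The 3 ligand genes were read in different cells. Tgfb1 was a gene of endothelial and immune cells, with 33.5 ± 5.58 CPM in Endo-like, 24.8 ± 14.1 CPM in B-like, 22.8 ± 7.69 CPM in T-like and 18.1 ± 8.37 CPM in Macro-like cells. Those neighbours overlapped, since Endo-like cells were above B-like cells in 6 of 9 mice and B-like above T-like cells in 4 of 9. Within Endo-like cells, Tgfb1 reached 71.3 ± 22.7 CPM in the glomerular cluster, against 29.4 ± 12.7 CPM in the peritubular cluster. A level of 65.6 ± 24.3 CPM was read in an unnamed cluster of 698 cells led by S100a9, S100a8, Lyz2 and Cd209a, which are genes of neutrophils, monocytes and dendritic cells. Although PT-like cells supplied 29.8% of all Tgfb1 UMIs through their number, their level was 0.713 ± 0.157 CPM.

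Tgfb2 was a gene of mural and endothelial cells. It stood at 92.4 ± 28.0 CPM in Stromal-like cells, from 39.0 to 134 CPM with a median of 99.3, and at 42.3 ± 11.6 CPM in Endo-like cells, from 24.2 to 58.9 CPM with a median of 45.3. The order of these 2 populations held in 9 of 9 mice, and the next population, CD-IC-like cells, had 4.46 ± 5.03 CPM. Within Endo-like cells Tgfb2 was not spread evenly. The clusters in which neither the peritubular nor the glomerular marker list led, with Fabp4, Ly6c1 and Sox17 among the leading genes of one and Stmn2, Ltbp4, Fbln5 and Mgp of the other, had 77.8 ± 25.3 CPM, whereas the peritubular and glomerular clusters had 13.05 ± 4.70 and 14.1 ± 13.3 CPM. Fbln2, a gene of the glomerular list, was also among the leading genes of the cluster with Stmn2. Tgfb3 was the ligand gene most restricted to Stromal-like cells, whose 548 cells held 49.4% of its UMIs. Its level there was 70.7 ± 16.8 CPM, against 3.90 ± 2.01 CPM in Macro-like cells, the next in order.

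Ltbp1, which codes for the tether of the latent ligand, was read in the same 2 populations as Tgfb2. The level was 133 ± 42.6 CPM in Stromal-like and 42.2 ± 12.9 CPM in Endo-like cells, in that order in 9 of 9 mice, and no Ltbp1 UMI was found in T-like cells. Inside the Endo-like population Ltbp1, unlike Tgfb2, was lowest in the clusters where neither the peritubular nor the glomerular list led, with 96.1 ± 43.0 CPM in the glomerular, 49.7 ± 15.7 CPM in the peritubular and 23.8 ± 10.03 CPM in the other clusters.

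A low level in an abundant population can come from free RNA in the droplets, and a yardstick was taken from genes that PT-like cells should lack. The 11 endothelial markers together had a PT-like level of 0.188% of their Endo-like level, and the 13 stromal markers had 0.0677% of their Stromal-like level. The corresponding shares were 2.04% for Tgfb1 and 0.501% for Tgfb2 against Endo-like cells, 0.144% for Tgfb3 and 0.202% for Ltbp1 against Stromal-like cells, and 4.25% for Ccn2 against Stromal-like cells. By this measure the PT-like levels of Tgfb1 and Ccn2 lay well above the yardstick, and those of Tgfb2, Tgfb3 and Ltbp1 within a few multiples of it. Each share uses a single source population, whereas Tgfb1 is also read in immune cells and Ccn2 in DCT-like and Endo-like cells. For these genes the yardstick therefore cannot tell free RNA from RNA of the PT-like cells themselves.

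Among the whole populations, both receptor genes were highest in CD-PC-like cells. Tgfbr1, the signalling type I receptor, stood at 61.1 ± 11.1 CPM in CD-PC-like, 47.7 ± 16.6 CPM in Macro-like and 37.0 ± 4.91 CPM in CNT-like cells, and at 9.16 ± 2.05 CPM in PT-like cells. CD-PC-like cells were above Macro-like cells in 8 of 9 mice. Tgfbr2, the type II receptor that binds the ligand, stood at 119 ± 33.6 CPM in CD-PC-like and 71.4 ± 13.9 CPM in Endo-like cells, in that order in 8 of 9 mice. With clusters made without Harmony the CD-PC-like level was 76.0 CPM. T-like cells (40.3 ± 22.1 CPM) and B-like cells (38.1 ± 18.3 CPM) followed and could not be ordered, with T-like cells above in 4 of 9 mice. LOH-like cells were last with 8.27 ± 4.11 CPM. In the glomerular endothelial cluster Tgfbr2 reached 122 ± 55.4 CPM, much like the 119 ± 33.6 CPM of CD-PC-like cells.

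The receptor-activated Smad genes were found in every population and varied least between them. Smad2 ranged from 34.8 ± 10.2 CPM in Thin limb-like cells to 9.60 ± 3.73 CPM in CNT-like cells, and Smad3 from 37.2 ± 11.8 CPM in Thin limb-like cells to 11.9 ± 8.89 CPM in B-like cells. Their upper neighbours overlapped, Thin limb-like cells being above CD-PC-like cells in 6 of 9 mice for Smad2 and in 6 of 9 for Smad3. PT-like cells held 81.7% of all Smad2 UMIs and 80.7% of all Smad3 UMIs.

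Smad7, the inhibitory member, was read at 100.1 ± 27.5 CPM in CD-PC-like, 89.8 ± 26.4 CPM in Stromal-like, 82.7 ± 14.8 CPM in Endo-like and 72.3 ± 11.1 CPM in CNT-like cells. None of these 4 was above the next in more than 7 of 9 mice. Glomerular endothelial cells had 151 ± 60.1 CPM, and Macro-like cells were last with 24.8 ± 9.51 CPM.

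Ccn2, the classical target of the pathway, was read at 44.2 ± 25.6 CPM in Stromal-like, 32.4 ± 19.8 CPM in Podocyte-like, 19.7 ± 15.6 CPM in DCT-like and 16.8 ± 9.88 CPM in Endo-like cells. The spread between mice was wide in all 4 populations, from 8.53 to 91.7 CPM in Stromal-like and from 2.69 to 55.0 CPM in DCT-like cells. The PT-like level was 1.98 ± 0.765 CPM.

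The genes whose profile over the 13 populations was most like that of a member were found among 10311 genes by the Pearson correlation of mean log2(CPM + 1) in the Control mice. All points share libraries and depth, so the values only describe. For Tgfb1 they were Psmb9 (0.95), Sp100 (0.94) and Patl2 (0.94), for Tgfb2 Fkbp10 (0.97), Hrct1 (0.96) and Mgp (0.96), and for Tgfb3 Adgrl3 (0.96) and Serping1 (0.96). Ltbp1 was closest to Sncg (0.99), Bmp2 (0.98) and Sparcl1 (0.97). For the receptors the closest genes were Acer3 (0.89), Tmem221 (0.86) and Lgals3 (0.83) for Tgfbr1, and Ly6e (0.92), Cnpy3 (0.88) and Tbc1d15 (0.87) for Tgfbr2. Smad2 was closest to Nhlrc2 (0.91), Tfe3 (0.91) and Elovl6 (0.91), Smad3 to Arfip1 (0.92), Gmds (0.91) and Wbp4 (0.91), Smad7 to Plcb3 (0.93), Arid4b (0.92) and Aggf1 (0.92), and Ccn2 to Rapgef5 (0.90), Actn4 (0.89) and Pkd1 (0.88).

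For the comparisons between groups, UMIs were summed per mouse and population and tested with edgeR's quasi-likelihood test, with Benjamini-Hochberg adjustment over all genes tested in that population. From here on CPM refers to library sizes scaled by TMM (trimmed mean of M values), fold changes are log2 values ± SE, and the threshold for a call is an adjusted p of 0.05. Of the 140 combinations of 10 genes with 13 populations and all cells, 69 passed the filter on low counts and were tested in both comparisons. Each of the 10 genes was tested in at least the sum of all cells. No member passed the filter in Podocyte-like cells. The comparisons of AKI-CKD with Control and of AKI-CKD + EGT with AKI-CKD share the 3 AKI-CKD mice, so an unusual value in those mice enters both with opposite sign. In the sums over all cells, fewer cells of a type and less RNA per cell cannot be told apart.

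AKI-CKD was first compared with Control, which asks whether the TGF-beta genes were at another level after repeated cisplatin. None of the 69 member tests was called by edgeR's quasi-likelihood test with Benjamini-Hochberg adjustment (smallest adjusted p = 0.351), beside 0.0156% of the 115549 tests over all genes and populations. Those are 18 calls, which ranged from 2 without Control replicate 2 to 140 without AKI-CKD + EGT replicate 1. At an unadjusted p under 0.05, 1 member was higher (Tgfb2 in Endo-like cells) and 1 was lower (Ltbp1 in PT-like cells), where 4.08% of all tests were higher and 5.23% lower. DESeq2 called 0, with 2 at an unadjusted p under 0.05. The groups did not overlap in 11 of the 69, where 8.78% of all tests were higher and 7.75% lower in this way. The 6 higher ones were Tgfb2 in Endo-like and Stromal-like cells, Smad3 in PT-like and CD-IC-like cells and in all cells, and Smad7 in LOH-like cells. The 5 lower ones were Ltbp1 in PT-like, Tgfbr1 in CD-IC-like and Macro-like, and Smad3 in CD-PC-like and Macro-like cells. Over the 69 tests the fold change was above 0 in 26, with a median of -0.12, beside 49.2% above 0 for all tests. That median was 0.06, with 35 above 0, when Control replicate 1 was left out, and lay between -0.14 and -0.01 in the other alternative settings, so its sign did not hold in every setting. The number at an unadjusted p under 0.05 was 6 without Control replicate 2.

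**Figure D2:**
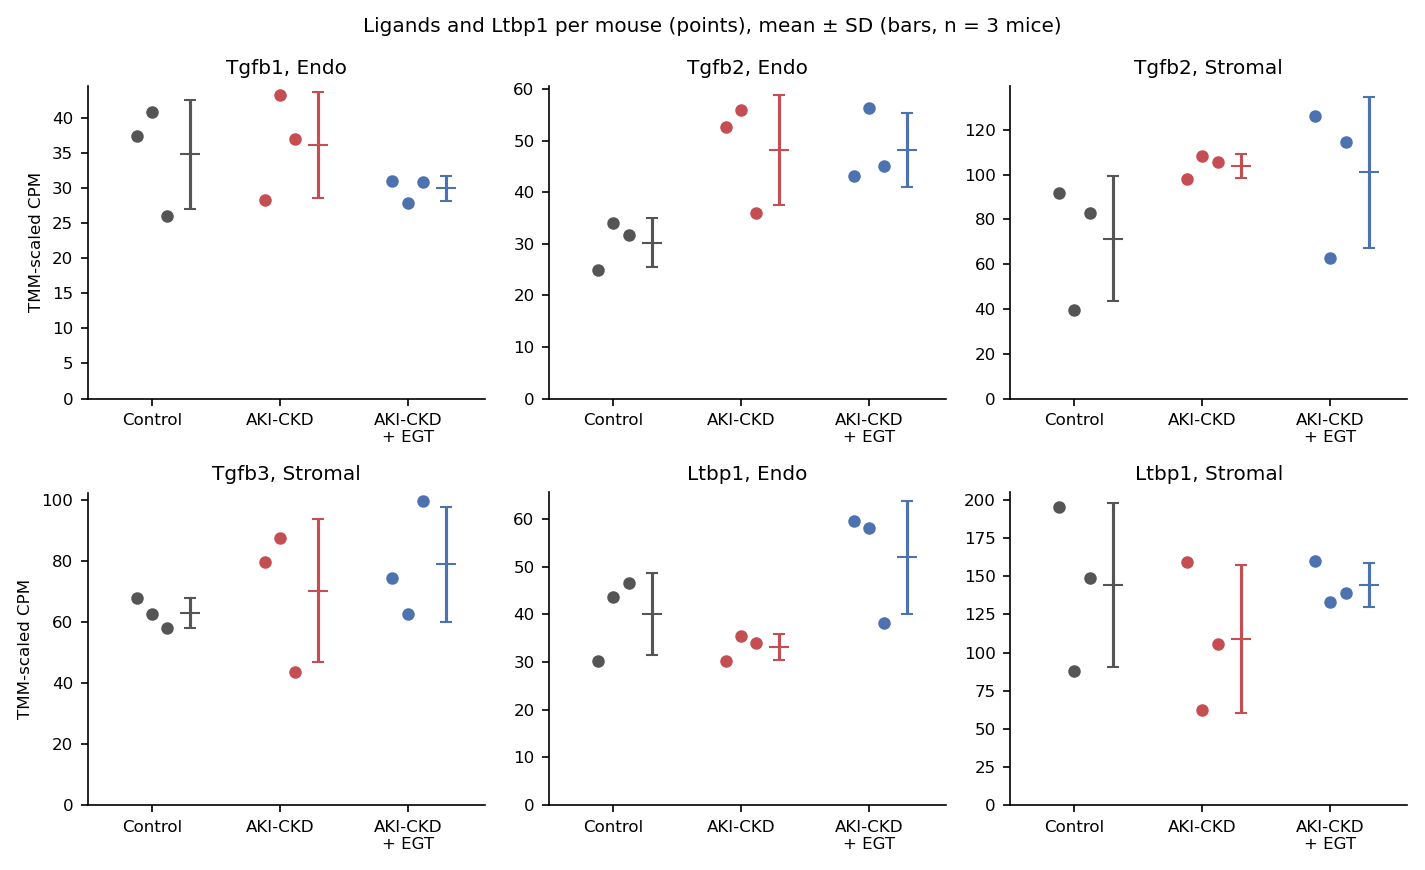
TMM-scaled level (CPM) in each mouse for the ligand and latency genes Tgfb1, Tgfb2, Tgfb3 and Ltbp1 in the populations where they are highest; points are mice, bars are group means with the SD over 3 mice. Tgfb2 in Endo-like cells lies at 35.9 to 55.9 CPM in AKI-CKD mice and at 24.96 to 34.1 CPM in Control mice, while the groups overlap for Tgfb1 in Endo-like and Tgfb3 in Stromal-like cells.

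Among the ligands, Tgfb2 had the smallest p. Its level in Endo-like cells was 24.96, 34.1 and 31.6 CPM in the Control mice, 52.7, 55.9 and 35.9 CPM in the AKI-CKD mice and 43.2, 56.4 and 45.1 CPM in the AKI-CKD + EGT mice, resting on 515 UMIs. Every AKI-CKD and every AKI-CKD + EGT mouse was above every Control mouse. The log2 fold change of AKI-CKD over Control was 0.68 ± 0.22 (confidence interval 0.20 to 1.15) with an unadjusted p of 0.00823 and an adjusted p of 0.351 in edgeR's quasi-likelihood test with Benjamini-Hochberg adjustment, so the difference did not pass. In Stromal-like cells Tgfb2 was 91.8, 39.7 and 82.9 CPM in the Control mice, 97.9, 108 and 106 CPM in the AKI-CKD mice and 126, 62.6 and 115 CPM in the AKI-CKD + EGT mice. The AKI-CKD mice were again above the Control mice, and the fold change of 0.61 ± 0.38 (adjusted p = 0.764, edgeR) was 0.22 without Control replicate 2.

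The make-up of the Endo-like population also differed between AKI-CKD and Control mice, and AKI-CKD + EGT mice overlapped both. The clusters in which neither the peritubular nor the glomerular list led, where Tgfb2 is highest, made up 37.2% to 37.8% of Endo-like cells in Control mice, 41.4% to 49.6% in AKI-CKD mice and 36.1% to 42.3% in AKI-CKD + EGT mice. Within those clusters the Tgfb2 level (plain CPM) was 39.7, 57.0 and 72.03 CPM in the Control mice, 89.2, 89.4 and 52.8 CPM in the AKI-CKD mice and 96.3, 122 and 81.6 CPM in the AKI-CKD + EGT mice. There the AKI-CKD mice overlapped each of the other groups, whereas every AKI-CKD + EGT mouse lay above every Control mouse. The fold change of AKI-CKD over Control in these clusters was 0.54 ± 0.27 (adjusted p = 0.517, edgeR). In the peritubular cluster the level was lower but the groups stood apart, on only 4 to 12 UMIs per mouse. It was 7.69, 9.23 and 8.66 CPM in the Control mice, 18.7, 14.9 and 21.4 CPM in the AKI-CKD mice and 12.9, 13.8 and 10.2 CPM in the AKI-CKD + EGT mice. Comparing groups within clusters was chosen after the data were seen, and the share of all genes standing apart there was not counted. In the glomerular cluster, on 0 to 5 UMIs per mouse, the groups overlapped, with 31.3, 32.6 and 0 CPM in the Control mice, 28.8, 3.62 and 0 CPM in the AKI-CKD mice and 9.46, 13.8 and 7.75 CPM in the AKI-CKD + EGT mice. Both clusters held too few Tgfb2 UMIs for the test. Podocyte and LOH markers in Endo-like cells also differed. The podocyte markers, of which 10 of 10 had a UMI, summed to 1097 to 1135 CPM in Control mice, 1234 to 1736 CPM in AKI-CKD mice and 1185 to 1554 CPM in AKI-CKD + EGT mice. In PT-like cells of Control mice the same list summed to 64.5 to 136 CPM. The Endo-like sum cannot tell RNA of podocytes from RNA of the Endo-like cells themselves. The LOH markers (10 of 10 with a UMI) summed to 615 to 945 CPM in Control mice, 137 to 552 CPM in AKI-CKD mice and 555 to 1024 CPM in AKI-CKD + EGT mice. The part of these shifts in the Tgfb2 values was not tested.

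**Figure D3:**
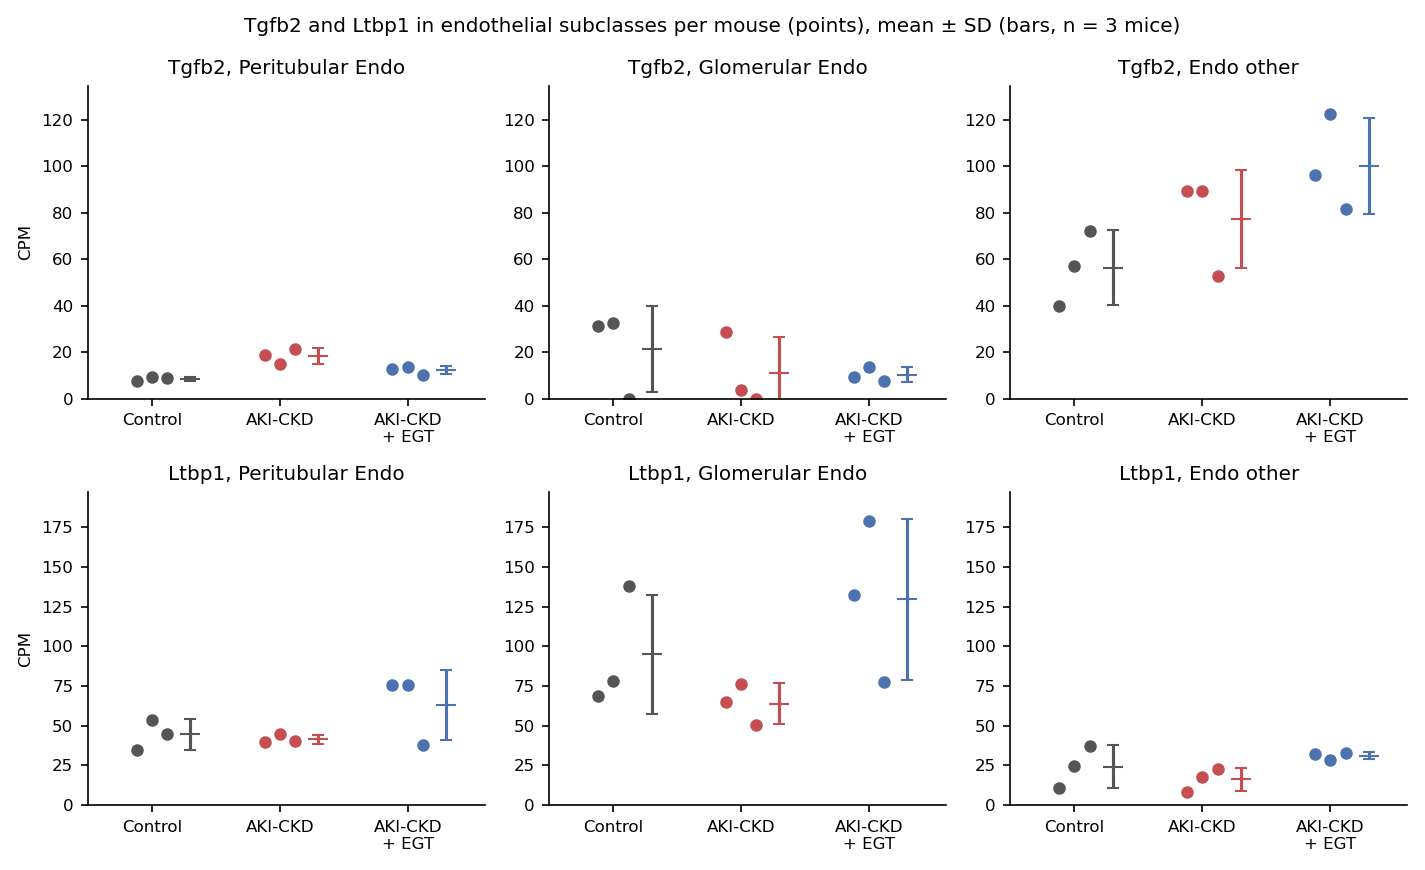
Plain level (CPM) of Tgfb2 and Ltbp1 in each mouse within the peritubular, glomerular and other clusters of Endo-like cells; points are mice and bars are group means with the SD over 3 mice. Tgfb2 is concentrated in the other clusters. There the AKI-CKD mice overlap each of the other groups, and every AKI-CKD + EGT mouse lies above every Control mouse. In the peritubular cluster, on 4 to 12 UMIs per mouse, the 3 AKI-CKD mice (14.9 to 21.4 CPM) lie above the 3 Control mice (7.69 to 9.23 CPM). Ltbp1 is highest in the glomerular cluster.

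For the other ligand genes the groups overlapped. Tgfb1 in Endo-like cells was 37.4, 40.9 and 26.1 CPM in the Control mice, 28.2, 43.2 and 36.9 CPM in the AKI-CKD mice and 31.1, 27.9 and 30.9 CPM in the AKI-CKD + EGT mice, with a fold change of 0.06 ± 0.23 (interval -0.43 to 0.55). In Macro-like cells it was 13.1, 17.7 and 24.1 CPM in the Control mice, 10.5, 22.0 and 4.83 CPM in the AKI-CKD mice and 17.7, 32.5 and 19.8 CPM in the AKI-CKD + EGT mice, with a fold change of -0.45 ± 0.49. Tgfb3 in Stromal-like cells was 67.8, 62.4 and 58.0 CPM in the Control mice, 79.6, 87.4 and 43.4 CPM in the AKI-CKD mice and 74.5, 62.6 and 99.6 CPM in the AKI-CKD + EGT mice, and the fold change of 0.17 ± 0.37 had an interval of -0.60 to 0.95.

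Ltbp1 was lower in every AKI-CKD than in every Control mouse in PT-like cells, at very low levels. It was 0.531, 0.318 and 0.178 CPM in the Control mice, 0.156, 0.0927 and 0.146 CPM in the AKI-CKD mice and 0.191, 0.295 and 0.484 CPM in the AKI-CKD + EGT mice, with a fold change of -1.35 ± 0.52 (adjusted p = 0.405, edgeR). These are the levels within a few multiples of the free RNA yardstick. The stromal markers, of which 13 of 13 had a UMI in PT-like cells, were likewise lowest in AKI-CKD mice, with 4.37 to 6.73 CPM in Control mice, 1.41 to 3.16 CPM in AKI-CKD mice and 3.89 to 15.6 CPM in AKI-CKD + EGT mice, and their part in the PT-like Ltbp1 values was not tested. In Stromal-like cells, where Ltbp1 is highest, it was 196, 88.0 and 149 CPM in the Control mice, 159, 62.4 and 106 CPM in the AKI-CKD mice and 160.4, 133 and 139 CPM in the AKI-CKD + EGT mice. The groups overlapped there, with a fold change of -0.41 ± 0.37 (adjusted p = 0.837, edgeR), which was -0.06 without Control replicate 1, -0.12 without AKI-CKD replicate 2 and -0.80 without AKI-CKD replicate 1.

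The receptor genes gave no call in AKI-CKD against Control, and the groups stood apart for Tgfbr1 in Macro-like and CD-IC-like cells. Tgfbr1 in Macro-like cells was 61.4, 47.6 and 55.9 CPM in the Control mice, 45.4, 43.9 and 22.5 CPM in the AKI-CKD mice and 78.3, 31.5 and 42.5 CPM in the AKI-CKD + EGT mice, each AKI-CKD mouse being below each Control mouse, with a fold change of -0.60 ± 0.35 (adjusted p = 0.722, edgeR). In CD-IC-like cells it was 24.999, 21.8 and 18.4 CPM in the Control mice, 17.5, 15.7 and 6.67 CPM in the AKI-CKD mice and 21.4, 20.1 and 25.6 CPM in the AKI-CKD + EGT mice, again without overlap between these 2 groups, and the fold change was -0.64 ± 0.40 (adjusted p = 0.601, edgeR). Markers of other cells moved with both. Endothelial markers in Macro-like cells (11 of 11 with a UMI) summed to 24.1 to 55.0 CPM in Control and 6.83 to 22.6 CPM in AKI-CKD mice, and CD-PC markers in CD-IC-like cells (8 of 8 with a UMI) to 1433 to 1563 and 694 to 1005 CPM, and their part was not tested. In CD-PC-like cells, where both receptor genes are highest, Tgfbr1 had a fold change of -0.05 ± 0.30 and Tgfbr2 of -0.30 ± 0.31, with overlapping groups for both.

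Smad3, the Smad most closely tied to fibrosis, was slightly higher in AKI-CKD mice in PT-like cells. The level was 13.7, 13.4 and 13.97 CPM in the Control mice, 17.8, 15.2 and 14.2 CPM in the AKI-CKD mice and 17.1, 15.6 and 20.1 CPM in the AKI-CKD + EGT mice, with every AKI-CKD mouse above every Control mouse. The fold change of 0.20 ± 0.13 had an adjusted p of 0.541 in edgeR's quasi-likelihood test with Benjamini-Hochberg adjustment. PT-like cells make up most of each library, and the sum over all cells gave 0.17 ± 0.13 with the groups likewise apart. In CD-IC-like cells the fold change was 0.86 ± 0.50 (adjusted p = 0.575, edgeR), whereas in CD-PC-like cells it was -0.30 ± 0.39 and in Macro-like cells -0.36 ± 0.55, so the sign of the Smad3 values was not shared by the populations. Smad2 in CD-PC-like cells was 20.9, 33.0 and 53.7 CPM in the Control mice, 17.0, 26.5 and 15.3 CPM in the AKI-CKD mice and 32.9, 40.7 and 29.6 CPM in the AKI-CKD + EGT mice, with overlapping groups and a fold change of -0.83 ± 0.46.

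The inhibitor and the target gene gave no call either. Smad7 in LOH-like cells was 55.0, 53.7 and 61.8 CPM in the Control mice, 62.9, 64.1 and 69.2 CPM in the AKI-CKD mice and 43.8, 57.2 and 71.95 CPM in the AKI-CKD + EGT mice, with AKI-CKD above Control in every mouse and a fold change of 0.21 ± 0.21 (adjusted p = 0.804, edgeR). Of the markers of other cells in LOH-like cells, those of podocytes, CD-PC, CD-IC and stroma were lower in every AKI-CKD than in every Control mouse, with 92.6 to 129.9 and 36.9 to 53.6 CPM for podocyte markers (10 of 10 with a UMI), 53.1 to 70.7 and 39.9 to 50.3 CPM for CD-PC markers (8 of 8), 27.8 to 33.6 and 14.8 to 27.3 CPM for CD-IC markers (11 of 11) and 13.3 to 15.9 and 1.05 to 12.6 CPM for stromal markers (11 of 13, with Pdgfra and Lum at 0) in Control and AKI-CKD mice. Their part in the Smad7 value was not tested. In CD-PC-like, Endo-like and Stromal-like cells, its main sites, the fold changes were -0.13 ± 0.31, -0.12 ± 0.18 and -0.48 ± 0.35 with overlapping groups. Ccn2 in DCT-like cells was 20.8, 29.1 and 2.63 CPM in the Control mice, 17.6, 59.0 and 23.4 CPM in the AKI-CKD mice and 6.00, 13.8 and 9.12 CPM in the AKI-CKD + EGT mice. Here the groups overlapped, and the fold change of 0.92 ± 0.53 (adjusted p = 0.630, edgeR) was 0.15 without AKI-CKD replicate 2. In Stromal-like cells Ccn2 was 31.9, 53.9 and 8.29 CPM in the Control mice, 36.7, 54.1 and 62.1 CPM in the AKI-CKD mice and 85.9, 11.7 and 52.6 CPM in the AKI-CKD + EGT mice, with a fold change of 0.47 ± 0.58 and an interval of -0.76 to 1.71.

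AKI-CKD + EGT was then compared with AKI-CKD, which asks whether the TGF-beta genes differed when ergothioneine was given with cisplatin. None of the 69 member tests was called by edgeR's quasi-likelihood test with Benjamini-Hochberg adjustment (smallest adjusted p = 0.215, Smad3 in LOH-like cells), beside 0.182% of all 115549 tests, and DESeq2 called 0, with 8 at an unadjusted p under 0.05. At an unadjusted p under 0.05, 11 were higher and 1 was lower, where 7.15% of all tests were higher and 5.19% lower. The groups did not overlap in 12, again 11 higher and 1 lower, where 8.71% of all tests were higher and 8.83% lower in this way. The fold change was above 0 in 53 of the 69 tests with a median of 0.22, beside 50.2% above 0 for all tests, and that median stayed between 0.15 and 0.28 in 18 alternative settings. The 69 signs are not independent, because the same genes were read in the same mice and the sums over all cells contain the populations. The alternative settings also reuse these mice. The 12 at an unadjusted p under 0.05 became 5 without AKI-CKD replicate 3, 6 without AKI-CKD + EGT replicate 2, 6 without AKI-CKD + EGT replicate 3, 7 without AKI-CKD replicate 1 and 7 with at most 10% mitochondrial UMIs.

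**Figure D4:**
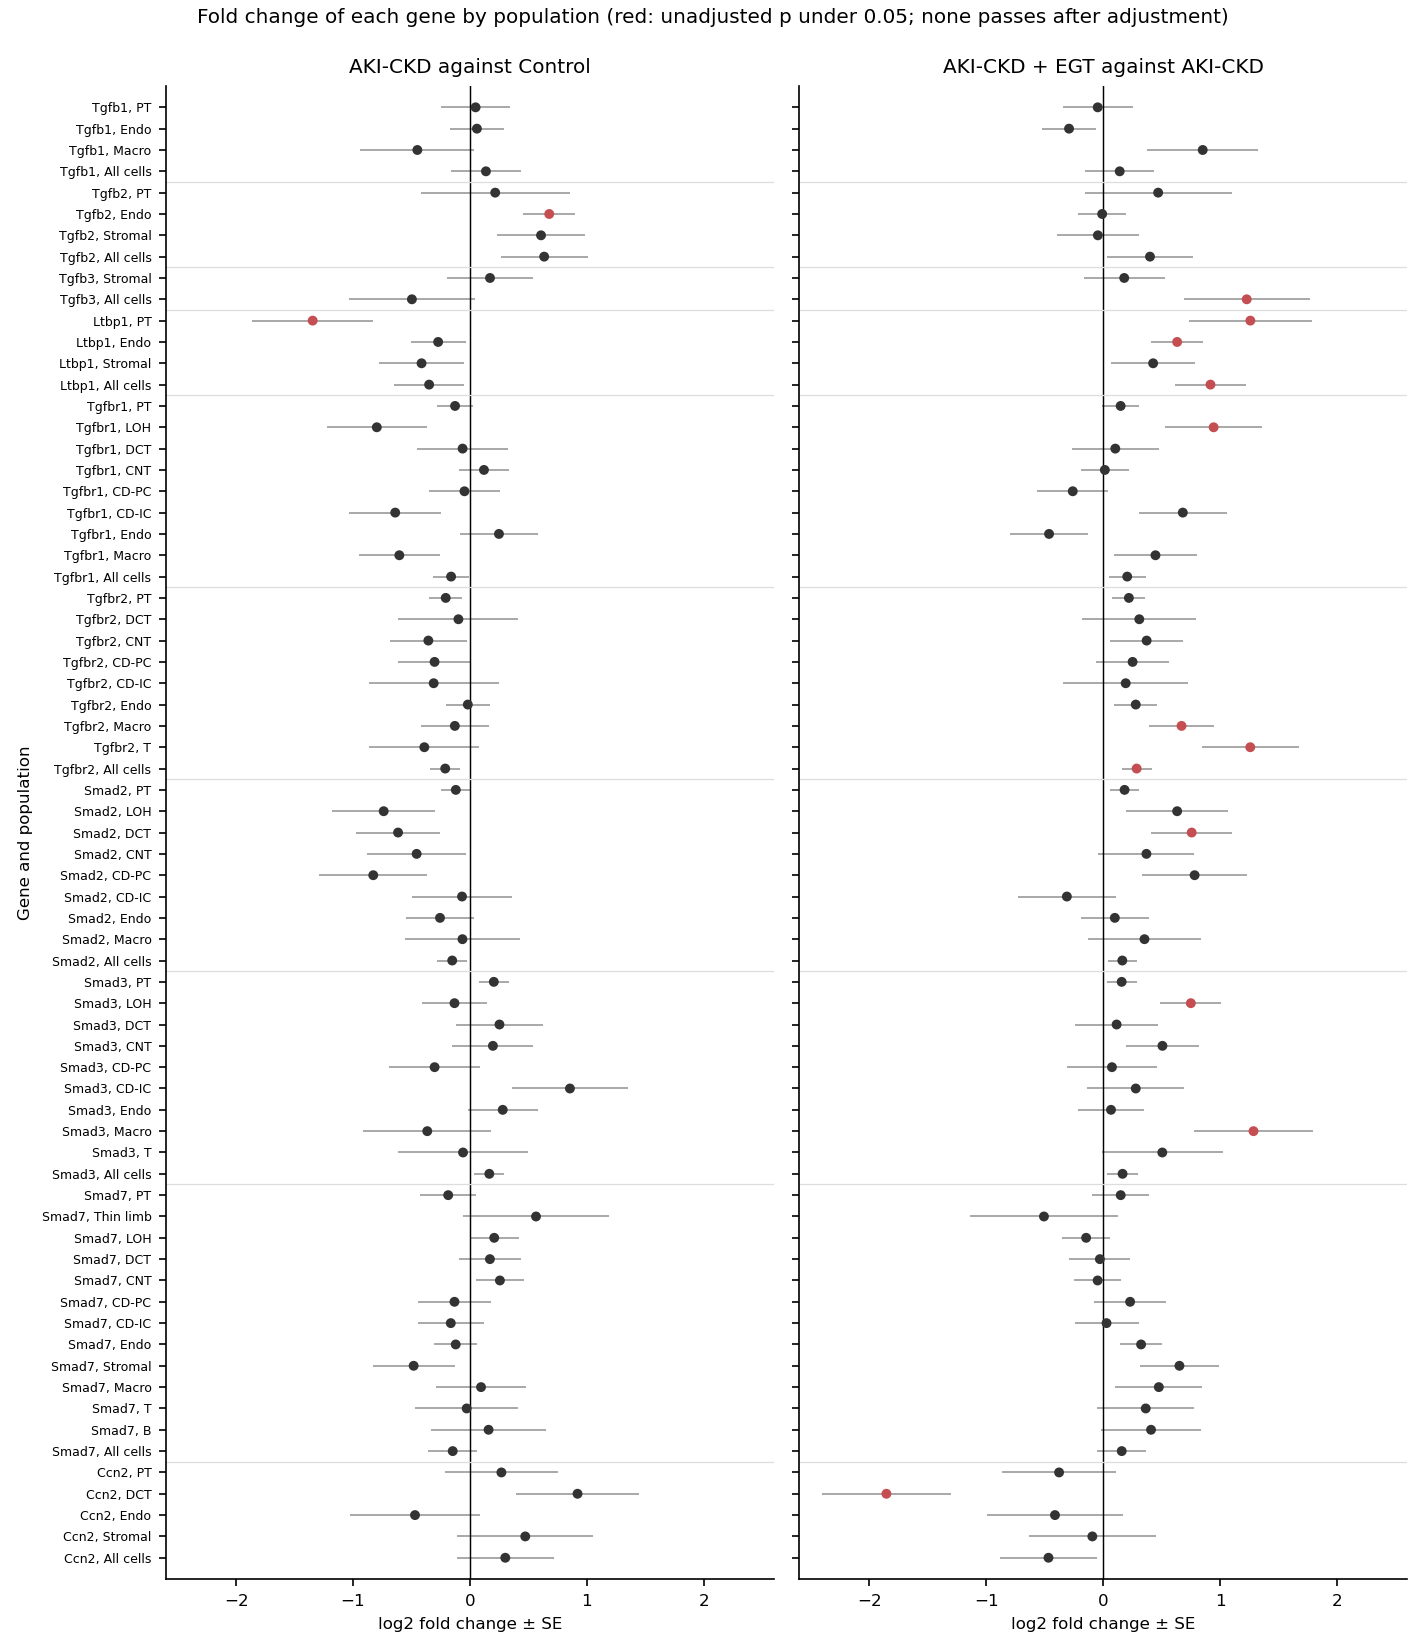
Log2 fold change of each tested member in each population, for AKI-CKD against Control and for AKI-CKD + EGT against AKI-CKD; points are estimates, lines are ± SE, and red points have an unadjusted p under 0.05. In the second comparison 53 of 69 values lie above 0 and none passes after adjustment.

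Several marker sums moved with the same comparison. Those of PT-like cells and of all cells are listed here, and some of the others are given beside the genes below. The mitochondrial share was higher in every AKI-CKD + EGT than in every AKI-CKD mouse in PT-, LOH-, CNT-, CD-IC-, Endo-, Stromal- and Macro-like cells. In PT-like cells the LOH markers, of which 10 of 10 had a UMI, summed to 66.5 to 123 CPM in AKI-CKD and 147 to 600.5 CPM in AKI-CKD + EGT mice, and in all cells the haemoglobin and other red cell markers, of which 6 of 6 had a UMI, summed to 0.400 to 3.26 and 66.6 to 129.7 CPM. The DCT, CD-PC, CD-IC, stromal and red cell sums in PT-like cells were likewise higher in every AKI-CKD + EGT than in every AKI-CKD mouse. So were the DCT, CD-PC and podocyte sums in all cells, and the other sums of both overlapped. Their part in the member values was not tested.

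In 3 of the 4 Ltbp1 tests each AKI-CKD + EGT mouse lay above each AKI-CKD mouse. In all cells it was 1.80, 1.46 and 1.00 CPM in the Control mice, 1.06, 1.498 and 0.798 CPM in the AKI-CKD mice and 1.72, 2.11 and 2.50 CPM in the AKI-CKD + EGT mice, with a fold change of 0.92 ± 0.30 (unadjusted p = 0.0113, adjusted p = 0.318, edgeR). In Endo-like cells, on 502 UMIs, it was 30.3, 43.6 and 46.5 CPM in the Control mice, 30.1, 35.4 and 33.9 CPM in the AKI-CKD mice and 59.6, 58.2 and 38.3 CPM in the AKI-CKD + EGT mice. The fold change there was 0.63 ± 0.23 (interval 0.15 to 1.11, adjusted p = 0.341, edgeR). Within the endothelial clusters the fold changes were 0.53 ± 0.29 in peritubular, 0.97 ± 0.42 in glomerular and 0.79 ± 0.40 in the other cells, all above 0, and none was called. The peritubular cluster, whose Ltbp1 level lies between those of the glomerular and the other clusters, made up 49.8, 35.2 and 37.1% of the Endo-like cells in AKI-CKD and 54.3, 53.5 and 50.2% in AKI-CKD + EGT mice, without overlap, and the part of this in the Endo-like value was not tested. In Stromal-like cells the groups overlapped, with a fold change of 0.43 ± 0.36. The PT-like fold change of 1.26 ± 0.52 rests on the low values given above, beside stromal marker sums that moved with it.

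In each population where a ligand gene held enough UMIs for a test, these groups overlapped. Pairs with fewer UMIs were not tested. In the peritubular cluster, which held too few UMIs for a test, the Tgfb2 values of AKI-CKD + EGT mice given above (plain CPM) were all below those of AKI-CKD mice. In the unnamed clusters, where 37 pairs of a member and a cluster held at least 20 UMIs, 1 pair lay above all Control mice after cisplatin alone (5.59% of pairs over all genes) and 2 pairs did so with EGT (6.58%). Tgfb2 had a fold change of -0.01 ± 0.21 in Endo-like cells (interval -0.45 to 0.44) and of -0.04 ± 0.35 in Stromal-like cells (interval -0.79 to 0.70). Tgfb1 had a fold change of -0.29 ± 0.23 in Endo-like cells and of 0.85 ± 0.48 in Macro-like cells, with overlapping groups in both. Tgfb3 in all cells was 0.558, 0.450 and 0.265 CPM in the Control mice, 0.233, 0.475 and 0.199 CPM in the AKI-CKD mice and 0.395, 0.443 and 1.28 CPM in the AKI-CKD + EGT mice. That fold change of 1.23 ± 0.54 (adjusted p = 0.387, edgeR) was 0.49 without AKI-CKD + EGT replicate 3. Stromal-like cells made up 0.70% of that library and 0.19 and 0.34% of AKI-CKD + EGT replicates 1 and 2. Their share was 0.14% to 0.27% in AKI-CKD mice and 0.13% to 0.35% in Control mice. The part of these shares in the Tgfb3 values of all cells was not tested. Inside Stromal-like cells the Tgfb3 fold change was 0.18 ± 0.35.

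**Figure D5:**
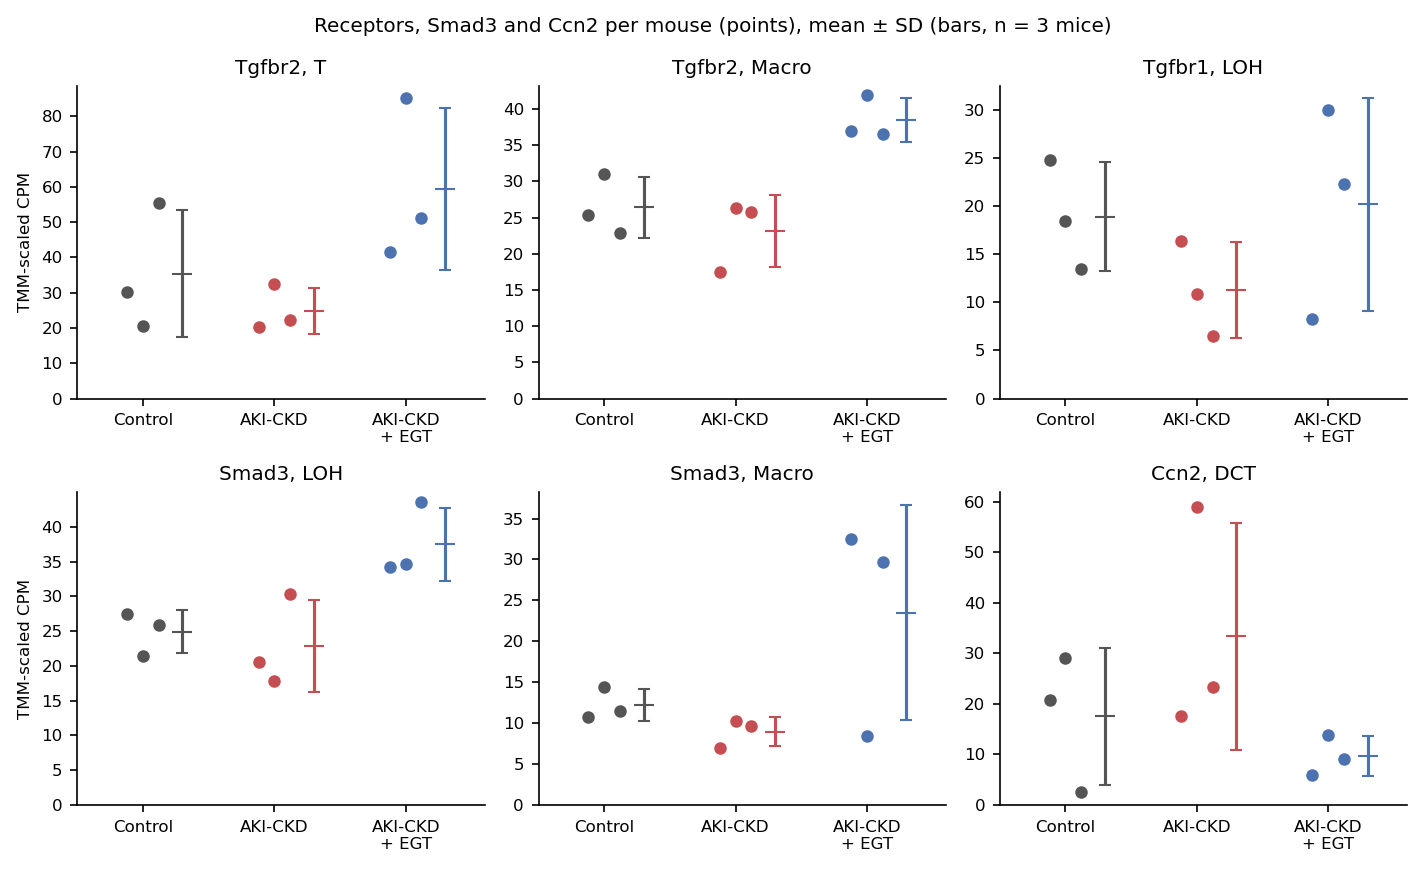
TMM-scaled level (CPM) in each mouse for receptor, Smad and target genes for 6 pairs of a gene and a population with an unadjusted p under 0.05 in AKI-CKD + EGT against AKI-CKD; points are mice, bars are group means with the SD over 3 mice. Tgfbr2 in T-like and Macro-like cells and Smad3 in LOH-like cells lie higher in all 3 AKI-CKD + EGT mice than in all 3 AKI-CKD mice, and Ccn2 in DCT-like cells lies lower.

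Among the receptors, Tgfbr2 was higher in AKI-CKD + EGT mice in immune populations. In T-like cells, on 126 UMIs, it was 30.2, 20.6 and 55.5 CPM in the Control mice, 20.2, 32.4 and 22.2 CPM in the AKI-CKD mice and 41.6, 85.3 and 51.2 CPM in the AKI-CKD + EGT mice. The fold change was 1.26 ± 0.42 with an unadjusted p of 0.00738 and an adjusted p of 0.242 in edgeR's quasi-likelihood test with Benjamini-Hochberg adjustment, and it was 0.83 without AKI-CKD + EGT replicate 2. Endothelial cells also carry this receptor, and the endothelial markers, of which 11 of 11 had a UMI in T-like cells, summed to 41.8 to 60.4 CPM in AKI-CKD and 109.7 to 215 CPM in AKI-CKD + EGT mice. The CD-IC and podocyte sums in T-like cells were likewise higher in every AKI-CKD + EGT than in every AKI-CKD mouse. The part of these markers in the Tgfbr2 value was not tested. In Macro-like cells Tgfbr2 was 25.3, 31.0 and 22.9 CPM in the Control mice, 17.5, 26.4 and 25.7 CPM in the AKI-CKD mice and 36.9, 42.0 and 36.6 CPM in the AKI-CKD + EGT mice. The AKI-CKD + EGT mice lay above all 6 other mice there, and the fold change was 0.67 ± 0.28 (adjusted p = 0.447, edgeR). Stromal markers in Macro-like cells (9 of 13 with a UMI, with Pdgfra, Lum, Dpt and Meg3 at 0) summed to 4.83 to 15.5 CPM in AKI-CKD and 19.4 to 33.9 CPM in AKI-CKD + EGT mice, and podocyte markers (10 of 10) to 35.4 to 54.7 and 104 to 205 CPM, and their part in the Macro-like values was not tested. In PT-like cells and in all cells the groups also stood apart, at smaller fold changes of 0.22 ± 0.14 and 0.29 ± 0.13. CD-PC markers (8 of 8 with a UMI) summed to 37.6 to 48.5 CPM in AKI-CKD and 67.0 to 116 CPM in AKI-CKD + EGT mice in PT-like cells. In all cells they summed to 104 to 249 and 320 to 364 CPM, and their part in these Tgfbr2 values was not tested.

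Tgfbr1 was less uniform. In LOH-like cells it was 24.8, 18.4 and 13.5 CPM in the Control mice, 16.4, 10.8 and 6.49 CPM in the AKI-CKD mice and 8.21, 29.98 and 22.3 CPM in the AKI-CKD + EGT mice, with overlapping groups and a fold change of 0.95 ± 0.41 (adjusted p = 0.330, edgeR). In CD-IC-like cells the groups stood apart with a fold change of 0.68 ± 0.38 (adjusted p = 0.385, edgeR). In CD-PC-like cells, its main site, the fold change was -0.26 ± 0.30, beside 0.25 ± 0.31 for Tgfbr2.

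Smad3 in LOH-like cells had the smallest adjusted p of all member tests. Its level, on 295 UMIs, was 27.5, 21.5 and 25.8 CPM in the Control mice, 20.5, 17.8 and 30.3 CPM in the AKI-CKD mice and 34.2, 34.7 and 43.6 CPM in the AKI-CKD + EGT mice. All 3 AKI-CKD + EGT mice were above the other 6, and the fold change was 0.75 ± 0.26 (interval 0.20 to 1.30) with an unadjusted p of 0.01004 and an adjusted p of 0.215 by edgeR. In LOH-like cells the stromal markers, of which 11 of 13 had a UMI (Pdgfra and Lum were at 0), summed to 1.05 to 12.6 CPM in AKI-CKD and 20.3 to 24.5 CPM in AKI-CKD + EGT mice. The mitochondrial share was 2.78 to 3.89% and 4.09 to 8.56%. CD-PC markers (8 of 8) summed to 39.9 to 50.3 and 71.4 to 167 CPM, and podocyte markers (10 of 10) to 36.9 to 53.6 and 65.8 to 199 CPM. The red cell sum was likewise higher in every AKI-CKD + EGT mouse, and the other sums overlapped. Their part in the Smad3 value was not tested. With cells limited to at most 10% mitochondrial UMIs, the Smad3 fold change was 0.94. In Macro-like cells Smad3 was 10.7, 14.4 and 11.4 CPM in the Control mice, 6.99, 10.3 and 9.66 CPM in the AKI-CKD mice and 32.5, 8.39 and 29.7 CPM in the AKI-CKD + EGT mice, where AKI-CKD + EGT replicate 2 fell among the AKI-CKD mice, with a fold change of 1.29 ± 0.51 (adjusted p = 0.424, edgeR).

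Smad2 was higher in every AKI-CKD + EGT than in every AKI-CKD mouse in the DCT-like population and the CD-PC-like population. In DCT-like cells it was 24.0, 9.496 and 15.8 CPM in the Control mice, 12.3, 9.07 and 10.2 CPM in the AKI-CKD mice and 16.8, 18.0 and 18.7 CPM in the AKI-CKD + EGT mice, with a fold change of 0.76 ± 0.35 (adjusted p = 0.416, edgeR). In CD-PC-like cells the fold change was 0.78 ± 0.45 (adjusted p = 0.619, edgeR). CD-PC markers in DCT-like cells (8 of 8 with a UMI) summed to 42.8 to 50.5 CPM in AKI-CKD and 66.5 to 142 CPM in AKI-CKD + EGT mice, and macrophage markers in CD-PC-like cells (13 of 16, with Adgre1, Ly6c2 and Flt3 at 0) to 16.4 to 67.8 and 129 to 679.6 CPM. Also higher in every AKI-CKD + EGT mouse were the podocyte, stromal, T cell and red cell sums in DCT-like cells and the red cell sum in CD-PC-like cells. The part of these markers in the Smad2 values was not tested. For the inhibitor Smad7 the values were 119.7, 79.5 and 91.2 CPM in the Control mice, 49.0, 95.7 and 55.9 CPM in the AKI-CKD mice and 80.2, 109.5 and 128 CPM in the AKI-CKD + EGT mice in Stromal-like cells. The groups overlapped, with a fold change of 0.65 ± 0.34, and in Endo-like and CD-PC-like cells the fold changes were 0.33 ± 0.18 and 0.23 ± 0.31. Within the endothelial clusters, compared after the data were seen, they were 0.25 ± 0.28 in peritubular, 0.91 ± 0.35 in glomerular and 0.44 ± 0.22 in the other cells, and none was called.

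Ccn2 in DCT-like cells was the single member test that was lower at an unadjusted p under 0.05. The group means were 9.65 ± 3.94 against 33.3 ± 22.4 CPM for AKI-CKD + EGT against AKI-CKD (SD, n = 3), on 240 UMIs in all 9 mice. The fold change was -1.85 ± 0.55 (interval -3.02 to -0.68) with an unadjusted p of 0.00402 and an adjusted p of 0.297 in edgeR's quasi-likelihood test with Benjamini-Hochberg adjustment. The highest mouse was AKI-CKD replicate 2, and without it the fold change was -1.08. Podocyte markers in DCT-like cells, 10 of 10 with a UMI, summed to 51.5 to 83.8 CPM in AKI-CKD and 116 to 275 CPM in AKI-CKD + EGT mice. Stromal markers (12 of 13, with Lum at 0) summed to 58.5 to 74.3 and 75.2 to 83.1 CPM. The CD-PC, T cell and red cell sums were likewise higher in every AKI-CKD + EGT mouse, and the other sums overlapped. Their part in the Ccn2 value was not tested. In Endo-like and Stromal-like cells the Ccn2 fold changes were -0.41 ± 0.58 and -0.09 ± 0.55 with overlapping groups.

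Around the 10 genes, 74 other genes of the pathway were read in the same fits, of which 72 passed the filter in at least 1 population, in 5 roles: latent complex and activation, receptors and co-receptors, Smads and nuclear partners, negative regulators and turnover, and targets. In AKI-CKD against Control, 0 of 537 tests were called by edgeR's quasi-likelihood test with Benjamini-Hochberg adjustment, with 28 higher and 33 lower at an unadjusted p under 0.05, and the fold change was above 0 in 261. Over all tests 0.0156% were called, 4.08% were higher and 5.23% lower at that p, and 49.2% were above 0. DESeq2 called 1. Among the genes with the smallest unadjusted p was Nedd4l, a ubiquitin ligase that turns over receptors and activated Smads, whose group means in Stromal-like cells were 12.4 ± 0.124 against 77.2 ± 13.4 CPM for AKI-CKD against Control, with a fold change of -2.58 ± 0.47 (adjusted p = 0.0838, edgeR). The Stromal-like sums of the AKI-CKD mice hold 161201, 246845 and 167256 UMIs of all genes, so 12.4 CPM stands for very few Nedd4l UMIs. Its small SD is no measure of precision. Nedd4l is also read in tubule cells, and tubule markers in Stromal-like cells were lower in AKI-CKD mice too, with 159 to 964 and 11.96 to 74.4 CPM for 8 of 8 CD-PC markers, 437 to 469 and 149.9 to 279 CPM for 10 of 10 LOH markers and 102 to 237 and 59.8 to 68.2 CPM for 9 of 9 DCT markers in Control and AKI-CKD mice, and their part was not tested. Vim, which codes for vimentin, had 620.2 ± 139 against 338 ± 45.2 CPM in Endo-like cells and a fold change of 0.87 ± 0.19 (adjusted p = 0.199, edgeR). The latent binding protein gene Ltbp3 had a fold change of 0.94 ± 0.26 in CD-IC-like cells, the co-receptor gene Tgfbr3 of -2.17 ± 0.66 in Thin limb-like cells, and the coactivator gene Crebbp of -0.61 ± 0.18 in Endo-like cells. The values that follow are also log2 fold changes ± SE. Of the other receptor and integrin genes, Bmpr1a had -0.92 ± 0.32 in CD-IC-like cells, Acvr2b -0.54 ± 0.19 in all cells and Itgb5 0.71 ± 0.19 in DCT-like cells. In LOH-like cells Trim33, Smad1 and Smurf2 had -0.88 ± 0.29, -0.84 ± 0.29 and -1.004 ± 0.29. Pmepa1, a feedback inhibitor, had 1.19 ± 0.44 in Podocyte-like cells, and the target genes Id2 and Id3 had 0.78 ± 0.23 in CD-PC-like and 1.20 ± 0.39 in Thin limb-like cells. None of these passed after adjustment.

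In AKI-CKD + EGT against AKI-CKD, 2 of 537 tests were called (DESeq2 called 2), with 39 higher and 25 lower at an unadjusted p under 0.05 and the fold change above 0 in 295. Over all tests 0.182% were called, 7.15% were higher, 5.19% lower and 50.2% above 0. Nedd4l rose in CD-IC-like cells, with group means of 314 ± 93.7 against 167 ± 27.4 CPM and a fold change of 0.91 ± 0.23 (adjusted p = 0.0460, edgeR). PT markers in CD-IC-like cells (15 of 15 with a UMI) summed to 5641 to 8267 CPM in AKI-CKD and 8859 to 10177 CPM in AKI-CKD + EGT mice, and mitochondrial UMIs made up 1.22 to 2.02 and 2.29 to 6.56%, and their part in the Nedd4l value was not tested. Itgb6, whose integrin releases latent TGF-beta at epithelial surfaces, rose in Podocyte-like cells with group means of 131 ± 27.8 against 24.1 ± 12.03 CPM and a fold change of 2.30 ± 0.55 (adjusted p = 0.04995, edgeR, just under the threshold). Its AKI-CKD level was also below that of Control mice in the first comparison, with a fold change of -2.01 ± 0.57 (adjusted p = 0.180, edgeR), which shares those AKI-CKD mice. The AKI-CKD values rest on 14, 24 and 21 cells per mouse, with 92473, 66183 and 142488 UMIs of all genes. A level of 24.1 CPM there stands for few Itgb6 UMIs. PT markers in Podocyte-like cells (15 of 15 with a UMI) summed to 17463 to 18766 CPM in Control, 9743 to 10562 CPM in AKI-CKD and 9913 to 18135 CPM in AKI-CKD + EGT mice. DCT markers (9 of 9) summed to 204 to 357, 28.1 to 136 and 120.2 to 866 CPM in that order, so that AKI-CKD lay below Control in both sums and overlapped AKI-CKD + EGT in both, and their part was not tested. The number called was 17 without AKI-CKD + EGT replicate 1 and between 0 and 1 without any other library, and both calls were lost (0 called) with the replicate block, with only the 6 mice compared and with at most 10% mitochondrial UMIs. Among the targets, Id3 and Id1 in Thin limb-like cells had fold changes of -1.59 ± 0.39 and -1.82 ± 0.52, and Id2 in CD-PC-like cells one of -0.73 ± 0.22. Thbs1, an activator of the latent ligand, had a fold change of -0.75 ± 0.20 in CNT-like cells, and the ubiquitin ligase gene Smurf2 one of 1.03 ± 0.29 in LOH-like cells. As fold changes, Lrrc32, which codes for a cell-surface anchor of the latent ligand, had -0.75 ± 0.26 in Endo-like cells, and Furin, a protease that cleaves the ligand precursors, -0.36 ± 0.13 in all cells. Among receptor genes the fold changes were 2.14 ± 0.67 for Tgfbr3 in Thin limb-like, 0.85 ± 0.32 for Bmpr1a in CD-IC-like and 1.03 ± 0.40 for Acvr1 in CNT-like cells. The nuclear partners Crebbp, Tgif1 and Smad4 had fold changes of 1.32 ± 0.34 in T-like, 0.47 ± 0.14 in PT-like and -0.29 ± 0.12 in PT-like cells. Fst, which codes for the activin-binding protein follistatin, had a fold change of -2.72 ± 0.76 in Thin limb-like cells. Dcn, which codes for decorin and is a fibroblast gene, had group means of 0.669 ± 0.424 against 0.0131 ± 0.0130 CPM in PT-like cells, too low in AKI-CKD mice for a fold, beside stromal marker sums there that were also higher in every AKI-CKD + EGT mouse. Apart from Nedd4l and Itgb6, none of these passed after adjustment.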

How the data were processed

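Gene by cell matrices of UMI counts were deposited by the authors for each of the 9 mice. Per the file headers they were made with PISA, and the submitters' processing notes name the GRCm39 genome. The aligner and annotation are not given in the sources used here. The counts are neither normalized nor pooled, and the lowest barcode total was 1000 to 1072 UMIs per library, so a minimum had been applied before deposit. Genes are listed by symbol with no coordinates.

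After the study's methods, barcodes under 1000 UMIs or 500 genes, or above 15% mitochondrial UMIs, were left out. Principal components (30) of 2000 variable genes, without the genes of the pathway and mitochondrial and ribosomal protein genes, were integrated with Harmony, and clusters were made with 20 neighbours and a resolution of 1.1. Clusters were named where at least 3 markers of a list were raised 2-fold, a marker was among the leading genes and no other list led. Clusters led by haemoglobin genes, with more raised markers of another immune class, or with proximal tubule genes in a second round of clustering stayed unnamed. Doublets were scored and kept, and the 6% of cells with the highest scores were left out in an alternative.

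UMIs were summed per mouse and population where every mouse had at least 10 cells. Tests used filterByExpr, TMM and the quasi-likelihood test of edgeR 4.0.16 (R 4.3.3) in 1 fit of all 9 mice, with Benjamini-Hochberg adjustment over all genes tested in a population. The p-values are over mice, not cells. The SE of a log2 fold change was derived from the test, as its size divided by the square root of the quasi-likelihood F statistic. Confidence intervals were built from that SE. DESeq2 1.42.0 was an alternative, and other alternatives changed size factors, filters, mice, mitochondrial limit, doublets and integration. Python 3.11.15 with numpy 2.4.6, scipy 1.17.1 and scikit-learn 1.9.0 was used for the rest. The scripts were tested on simulated data. With 3 mice against 3, no exact permutation test of a single value can go below p = 0.1, so none is given.

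The 10 members, the pathway list and the marker lists were chosen with earlier results of these data known. All members are described. Other pathway genes are named where called, otherwise up to 3 per role and comparison by the smallest unadjusted p, and likeness was sought among genes of at least 20 CPM in 1 population, with the 3 closest genes given for each member. For Tgfb3 the third is not reported here.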

Additional observations from a re-analysis of the deposited data

Results flagged for a closer look

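In clusters that carry no cell type name, whose cells enter only the sums over all cells, 2 of the 10 genes were higher in every mouse of a treated group than in every Control mouse, among genes with at least 20 UMIs in a cluster that held at least 10 cells of each mouse. Of 37 pairs of a member and a cluster, 1 lay above Control after cisplatin alone and 2 with EGT, where 5.59 and 6.58% of the 67113 pairs over all genes did, so these counts are near the background. Smad7 in a cluster of 341 cells led by Serpina1f, Serpina1d and Cyp7b1 had a mean of 21.6 CPM in AKI-CKD mice (30.5, 13.2 and 21.2 CPM) and of 38.2 CPM in AKI-CKD + EGT mice (30.4, 41.2 and 43.1 CPM), above all Control mice (11.3, 0 and 11.9 CPM). Between 0 and 6 UMIs stand behind each of these values. Smad2 in a cluster of 283 cells led by C3, Stc2 and Pcp4 had a mean of 34.1 CPM in AKI-CKD + EGT mice (35.2, 26.6 and 40.5 CPM), above all Control mice (0, 13.1 and 18.4 CPM), on 0 to 5 UMIs per mouse. These differences were not tested. Groups of 3 mice are too small for a test for outlying samples.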

How the results depend on the processing

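The members' fold changes were recomputed under up to 18 alternatives each, giving 2457 values for 138 fold changes. In 116 of them the sign was the other one, each time for a fold change under 0.5 in size, and 1 value passed an adjusted p of 0.05. That one was Ccn2 in DCT-like cells in AKI-CKD + EGT against AKI-CKD without the filter on low counts (-1.87), which made the number of members called 1. The members called stayed at 0 in both comparisons in all other settings, DESeq2, the replicate block and each mouse left out included. Replicate numbers were compared for pairing, and the correlations of same-numbered deviations were -0.09, 0.09 and 0.45 in the first comparison and -0.02, -0.08 and -0.48 in the second. They had no common sign, and the mice were not treated as pairs in the main fit. So few correlations cannot exclude shared handling of same-numbered mice, and the labels give only the number. With the replicate block, the pathway genes called in AKI-CKD + EGT against AKI-CKD went from 2 to 0.

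That count was also 0 with only the 6 mice compared and with at most 10% mitochondrial UMIs, 1 with RLE size factors, with library sizes without mitochondrial, ribosomal protein and Malat1 counts, without the highest doublet scores and without Harmony, 20 without the filter, and between 0 and 17 with 1 mouse left out. In AKI-CKD against Control the pathway count of 0 became 1 with DESeq2, 12 without the filter, 2 without Harmony and between 0 and 2 with 1 mouse left out (2 without AKI-CKD + EGT replicate 1). Over all genes and populations, the calls in AKI-CKD + EGT against AKI-CKD went from 210 to 2076 without AKI-CKD + EGT replicate 1 and to 36 without AKI-CKD replicate 3, 38 without AKI-CKD + EGT replicate 3, 50 without AKI-CKD replicate 2, 58 without AKI-CKD replicate 1, 66 without AKI-CKD + EGT replicate 2, 123 without Control replicate 2 and 141 without Control replicate 1. They were 1025 with DESeq2, 2033 without the filter, 45 with the replicate block, 129 with at most 10% mitochondrial UMIs and 134 with only the 6 mice compared. The 18 calls in AKI-CKD against Control became 401 with DESeq2, 892 without the filter, 116 without Harmony, 43 with only the 6 mice compared, 12 with the replicate block, 2 without Control replicate 2, 4 without AKI-CKD replicate 2 or 3, 30 without Control replicate 3 or AKI-CKD + EGT replicate 3 and 140 without AKI-CKD + EGT replicate 1.

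The following small fold changes turned sign. In AKI-CKD against Control, Tgfb1 in Endo-like cells ranged from -0.11 to 0.21 with 1 mouse left out and was -0.14 in the peritubular and -0.28 in the glomerular cluster, an alternative chosen after seeing the data. Tgfb3 in Stromal-like cells ranged from -0.065 to 0.41 with 1 mouse left out. Smad7 in CD-PC-like cells was 0.24 without Harmony and ranged from -0.55 to 0.054, and Tgfbr1 there was 0.035 without the highest doublet scores, 0.023 without Harmony and ranged from -0.22 to 0.11. In AKI-CKD + EGT against AKI-CKD, Ccn2 in Stromal-like cells was 0.069 with at most 10% mitochondrial UMIs and ranged from -0.49 to 0.34. Tgfb2 in Stromal-like cells was 0.012 with only the 6 mice compared, 0.027 without the highest doublet scores and ranged from -0.19 to 0.19. Tgfb3 in Stromal-like cells ranged from -0.072 to 0.41 and Smad3 in CD-PC-like cells from -0.18 to 0.28. The cause of these turns was not tested.

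The population with the highest level was the same for all 10 genes under the 3 alternatives that change the cells of the populations. Only the alternative without Harmony made new clusters, while the mitochondrial limit and the doublet scores left out cells and kept the cluster names. In these alternatives 3 of 60 levels moved by 1 SD or more: Tgfb1 in Endo-like cells was 40.7 CPM without the highest doublet scores, and without Harmony Tgfbr2 was 76.0 and Smad3 23.2 CPM in CD-PC-like cells. Depth limits the small populations most, and 71 of the 140 combinations held too few UMIs for a test.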

Other observations

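Ligand, latency and target genes were also read in clusters that stayed unnamed. A cluster of 367 cells led by Cntnap2, Asic2 and Pcdh15, with 7 of 10 stromal markers raised 2-fold but none among its leading genes, held 78 Ltbp1 UMIs, with a mean of 42.2 ± 28.6 CPM over the 9 mice, and 43 Tgfb2 UMIs at 22.1 ± 19.6 CPM. A cluster of 283 cells led by C3, Stc2, Pcp4, Igfbp6 and Ncam1 held 69 Ccn2 UMIs at 56.6 ± 31.9 CPM, ranging from 7.02 to 99.0 CPM between mice. Both clusters are small, and their levels carry no comparison between groups.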
